A study of Mus musculus with 28 samples.

Results

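The genes described here are the type 2 cytokines Il4 and Il13, the epithelial alarmins Il33 and Tslp, and the chains that bind them, namely Il4ra, Il13ra1, Il13ra2, Il1rl1 and Crlf2. They were chosen by name, with earlier results of these data known. Counts of them set beside the share over all genes are therefore descriptions and no test of the list. Their gene identifiers were matched in the count table of mouse ear skin. They are 9 of 55414 genes in the table, and all 9 were among the 18991 genes that passed the filter on low counts. Il4 reached 10 counts in only 4 libraries, all of the TPA group, so its entry into the test depended on the TPA group and its test is given from a fit without that filter. Il13 reached 10 counts in 16 libraries, 10 of them TPA and 6 TPA+RGRN-305.

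The animals were wild-type female C57BL/6J mice of 6 to 8 weeks at purchase. RGRN-305, a topical inhibitor of the chaperone HSP90, was put on the ear at 1 mg, or acetone in its place, 100 minutes before a challenge with 2.5 µg of the phorbol ester TPA or with acetone. A punch of whole ear was frozen 4 hours after the challenge. The 4 groups were vehicle (acetone and acetone, n = 4), RGRN-305 (RGRN-305 and acetone, n = 4), TPA (acetone and TPA, n = 10) and TPA+RGRN-305 (RGRN-305 and TPA, n = 10). Acetone was therefore common to all groups. The study ran more than 1 independent experiment, and the sources used here do not give the experiment of each library, so experiment and treatment cannot be told apart. All libraries are counted as separate mice. The labels give only a group and a number, and the study gives as many sequenced mice per group as there are libraries.

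IL-4 and IL-13 are made mainly by T helper cells, innate lymphoid cells, basophils and mast cells, and they drive allergic inflammation in skin and other barrier tissues. Both signal through IL-4Rα, encoded by Il4ra. IL-13 first binds IL-13Rα1, which then pairs with IL-4Rα, whereas IL-13Rα2 binds IL-13 tightly and serves largely as a decoy. IL-33 and TSLP are released or induced when epithelium is stressed. IL-33 is read by ST2, the product of Il1rl1, and TSLP by the product of Crlf2 together with the IL-7 receptor α chain.

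Il4 and Il13 are neighbours on the minus strand of chromosome 11, at 53493809 to 53509496 and 53522151 to 53525529 in GRCm39, with 12654 bases between them. The genes of the receptor chains and Il33 lie on chromosome 7 (Il4ra, 125151079 to 125182844), chromosome X (Il13ra1, 35375461 to 35435331, and Il13ra2, 146166035 to 146212188), chromosome 19 (Il33, 29902483 to 29938933), chromosome 1 (Il1rl1, 40468730 to 40504575) and chromosome 5 (Crlf2, 109702571 to 109706990). The 3′ end of the Il4 annotation overlaps Kif3a on the opposite strand, over 53493809 to 53495071. The kit marks strand, but the strand setting of the counting is not given in the sources used here. If strand was not used, reads from the overlapping stretch of Il4 and Kif3a cannot be told apart.

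Promoter windows of 250 bases before a gene start were matched by symbol in RefSeq (GRCm38.p6, not the build of the counts) for 8 of the 9 genes, not for Tslp, and gave 11 windows because some genes have more than 1 start. Windows are shown for both cytokines, for the alarmin Il33 and for the decoy receptor Il13ra2. Of these, Il13 had the widest and Il13ra2 the smallest response to TPA described below. Each window shown held a match. The other starts of Il4 and Il33 and the windows of Il4ra, Il13ra1 and Crlf2, which are not shown, held none. Motifs were searched on both strands. The AP-1 motif was read as TGANTCA. The motif of GATA factors was read as AGATAA. That of STAT factors was read as TTCNNNNGAA, and the NF-kB consensus was searched as well. Capitals mark the matches, and each line reads 5′ to 3′ on the strand of the gene.
Il4, the start nearer to Il13, chr11:53618666-53618915, minus strand, STAT match 167 to 158 bases before the start: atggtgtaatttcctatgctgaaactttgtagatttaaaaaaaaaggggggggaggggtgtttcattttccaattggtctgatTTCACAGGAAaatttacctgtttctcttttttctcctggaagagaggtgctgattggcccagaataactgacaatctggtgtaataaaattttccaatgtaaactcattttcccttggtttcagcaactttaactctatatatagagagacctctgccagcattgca
Il13, chr11:53634703-53634952, minus strand, GATA match 81 to 76 bases before the start: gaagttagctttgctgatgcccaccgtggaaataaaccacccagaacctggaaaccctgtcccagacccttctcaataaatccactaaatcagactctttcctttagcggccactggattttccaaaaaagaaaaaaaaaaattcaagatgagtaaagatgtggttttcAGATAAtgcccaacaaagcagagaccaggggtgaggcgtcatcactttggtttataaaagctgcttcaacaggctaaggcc
Il33, the upstream start, chr19:29924863-29925112, plus strand, STAT match 36 to 27 bases before the start: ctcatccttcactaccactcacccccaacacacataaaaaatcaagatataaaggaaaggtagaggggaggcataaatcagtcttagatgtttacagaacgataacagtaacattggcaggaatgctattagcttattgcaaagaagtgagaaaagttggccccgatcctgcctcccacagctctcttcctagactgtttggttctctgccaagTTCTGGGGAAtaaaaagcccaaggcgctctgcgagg
Il13ra2, chrX:147429193-147429442, minus strand, AP-1 match 193 to 187 and GATA match on the reverse strand 15 to 10 bases before the start: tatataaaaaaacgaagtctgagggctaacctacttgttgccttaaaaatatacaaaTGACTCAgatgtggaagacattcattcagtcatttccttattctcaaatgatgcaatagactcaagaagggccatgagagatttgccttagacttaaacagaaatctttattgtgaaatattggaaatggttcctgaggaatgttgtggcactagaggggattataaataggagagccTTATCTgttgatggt

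Of the 11 windows, 6 held a match and 5 held none. AP-1 letters stood in 1 of the 11 windows, that of Il13ra2, and the NF-kB consensus in 0 of 11. GATA letters stood in the windows of Il13 and Il13ra2 and in both windows of Il1rl1. STAT letters stood in 1 window of Il4 and 1 of Il33. Over 32851 RefSeq windows of the same length, AP-1 letters stood in 6.75%, GATA in 9.99%, STAT in 5.85% and the NF-kB consensus in 3.90%. A match describes letters in these windows and was not tested as a binding site.

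The libraries held 16751780 to 24716640 counts. Keratinocyte markers summed to 23323 to 29229 CPM in every library, as in skin, where CPM are counts scaled to library size by the trimmed mean of M values (TMM). The summed level of 5 hair keratins, which mark growing hair follicles, was over 5 times the vehicle median in 7 libraries (RGRN-305 replicates 3 and 4, TPA replicate 3, and TPA+RGRN-305 replicates 1, 2, 6 and 9). In TPA+RGRN-305 replicate 6, Xist was at 0.538 CPM against 396 to 743 in the other libraries, although the mice were female. The X-linked Il13ra1 and Il13ra2 were inside the range of the other TPA+RGRN-305 mice in that library. When libraries were scaled by their totals alone, the median over all genes moved by -0.29 log2 for the TPA effect and by 0.26 for the effect of RGRN-305 before TPA. In whole tissue, fewer cells of a type and less RNA per cell cannot be told apart.

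Expression of 8 of the 9 genes rose upon TPA challenge in comparison to the vehicle group, and none fell, at an adjusted p under 0.05 (edgeR). Over all genes, 31.6% were called higher and 34.4% lower. With a log2 fold change above 1 in addition, 6 of the 9 genes were called higher, against 10.8% of all genes. Leaving out Il4, these counts were 7 and 5 of 8 genes, and in a fit without the filter on low counts 8 of the 9 genes were called. In 8 of the 9 genes the TPA and vehicle mice did not overlap and TPA was higher, which held for 23.8% of all genes. The median log2 fold change was 1.08 over the 9 genes and -0.03 over all genes tested. The exception was the decoy receptor Il13ra2.

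In the comparison of TPA+RGRN-305 versus TPA, the same 8 genes were lower and none was higher (edgeR). Over all genes, 32.6% were called lower and 33.0% higher. With a log2 fold change below -1 in addition, 6 of the 9 genes were called, against 7.11% of all genes, and in 6 of the 9 the groups did not overlap, against 15.5%. Leaving out Il4, these 3 counts were 7, 5 and 5 of 8 genes, and without the filter 8 of the 9 were called lower. The median log2 fold change was -1.11 over the 9 genes and 0.02 over all genes. Both comparisons use the same 10 TPA mice, so their values are given side by side and not as separate evidence.

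**Figure D1:**
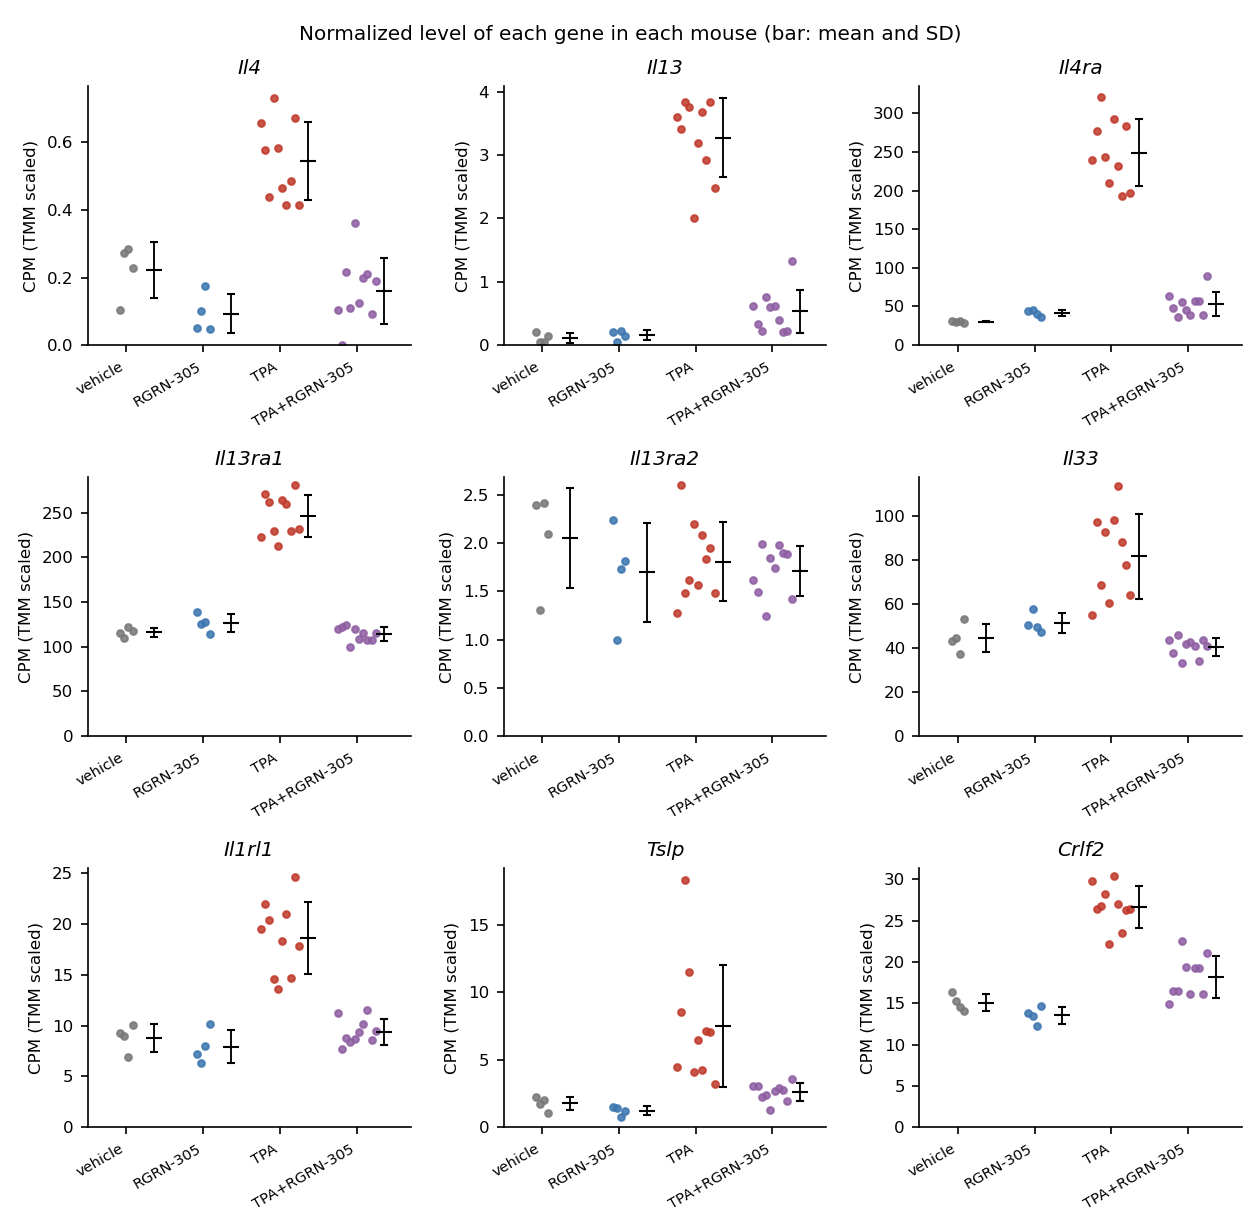
TMM-scaled CPM of each gene (vertical axis, linear from 0, with its own range per gene) in each mouse (points), by treatment group, with the mean and SD beside each group. In 8 of the 9 genes all 10 TPA mice sit above all 4 vehicle mice, whereas the Il13ra2 groups overlap throughout.

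Il13, the cytokine that acts on keratinocytes, fibroblasts and smooth muscle as well as on leukocytes, had the largest fold change of the 9 genes. The vehicle mice had 4, 1, 1 and 3 counts (0.208, 0.0545, 0.0474 and 0.137 CPM) and the RGRN-305 mice 4, 1, 5 and 3 counts (0.209, 0.0499, 0.217 and 0.147 CPM). The TPA mice had 2.00 CPM at the lowest, 3.50 at the median and 3.84 at the highest, from 31 to 82 counts. The TPA+RGRN-305 mice had 0.211, 0.498 and 1.32 CPM, from 4 to 28 counts. Every TPA mouse was thus above every mouse of the other groups, and the highest TPA+RGRN-305 mouse, replicate 10, was below the lowest TPA mouse, replicate 5.

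The log2 fold change of Il13 was 4.80 (SE 0.43, edgeR adjusted p = 1.58e-11) in TPA versus vehicle. Only 112 of the 18991 genes tested had a higher one. In summed counts, 584 in TPA against 9 in vehicle, the ratio of rates was 29.5 with an exact 95% interval of 15.4 to 64.8 that covers counting error only. With RGRN-305 before TPA, Il13 fell by 2.62 on the log2 scale (SE 0.22, edgeR adjusted p = 5.56e-12). The ratio of TPA to TPA+RGRN-305 was 6.24 (5.10 to 7.69) in summed counts.

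Il4, which directs T helper cell differentiation and the switch of B cells to IgE, was close to the limit of detection throughout. In vehicle, the mice had 2, 5, 6 and 5 counts (0.104, 0.273, 0.285 and 0.228 CPM), and the RGRN-305 mice 1, 2, 4 and 1 counts (0.0521, 0.0998, 0.174 and 0.0489 CPM). The 10 TPA mice had 0.414, 0.533 and 0.730 CPM at the lowest, median and highest, from 7 to 15 counts. The TPA+RGRN-305 mice had 0, 0.157 and 0.360 CPM, and the count of 0 in replicate 2 allows up to 0.144 CPM. All 10 TPA mice were above all other mice, while the remaining groups overlapped.

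In the fit without the filter, Il4 was 1.26 log2 higher in TPA than in vehicle (edgeR adjusted p = 0.0144) and fell by 1.66 in TPA+RGRN-305 versus TPA (edgeR adjusted p = 2.15e-05). With the filter the log2 fold changes were 1.27 (SE 0.37) and -1.70 (SE 0.28). Summed counts were 97 in TPA, 18 in vehicle and 36 in TPA+RGRN-305. The ratio of rates was 2.45 (1.47 to 4.31) for TPA over vehicle and 3.31 (2.24 to 5.00) for TPA over TPA+RGRN-305. Without TPA replicate 1 or replicate 4, Il4 no longer passed the filter.

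Il4ra, the chain shared by the receptors for IL-4 and IL-13, rose most among the receptors. Vehicle mice measured 31.5, 30.1, 31.1 and 29.1 CPM, and the RGRN-305 mice 44.2, 45.3, 40.6 and 35.9 CPM. TPA mice measured 192, 241 and 321 CPM at the lowest, median and highest, and the TPA+RGRN-305 mice 36.4, 52.1 and 90.1 CPM. The vehicle mice were the lowest, and the TPA mice were apart from all others. Il4ra was 3.03 log2 higher in TPA than in vehicle (SE 0.19, edgeR adjusted p = 3.60e-15) and fell by 2.22 in TPA+RGRN-305 versus TPA (SE 0.12, edgeR adjusted p = 1.92e-16).

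Il13ra1, which gives IL-13 its signalling receptor on non-lymphoid cells, changed less but with little spread. The vehicle mice had 116, 110, 122 and 118 CPM, and the RGRN-305 mice 138, 125, 128 and 114 CPM. The TPA mice had 213, 246 and 281 CPM at the lowest, median and highest, and the TPA+RGRN-305 mice 99.4, 115 and 125 CPM. Again TPA stood apart, and the TPA+RGRN-305 mice covered the range of the vehicle mice. The log2 fold change was 1.08 in TPA versus vehicle (SE 0.07, edgeR adjusted p = 2.20e-14) and -1.11 in TPA+RGRN-305 versus TPA (SE 0.05, edgeR adjusted p = 4.77e-18).

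Il13ra2, the decoy receptor, was low and did not pass the test in any comparison. The 4 vehicle mice had 2.39, 1.31, 2.42 and 2.10 CPM, and the RGRN-305 mice 2.24, 0.998, 1.74 and 1.81 CPM. The 10 TPA mice had 1.27, 1.73 and 2.60 CPM at the lowest, median and highest, and the TPA+RGRN-305 mice 1.25, 1.79 and 1.99 CPM. All 4 groups overlapped. The log2 fold change was -0.20 in TPA versus vehicle (95% interval -0.59 to 0.19, edgeR adjusted p = 0.367) and -0.07 in TPA+RGRN-305 versus TPA (-0.37 to 0.23, edgeR adjusted p = 0.708). Scaled by library totals alone, Il13ra2 was called lower in TPA versus vehicle (-0.48, edgeR adjusted p = 0.0216), beside the shift of -0.29 that this scaling gave the median of all genes, and its difference between TPA+RGRN-305 and TPA turned to 0.19.

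The receptor chains were also set against each other. Per kilobase of exon and within a library, where scaling between libraries cancels, Il13ra2 was 2.86% ± 0.65 of Il13ra1 in vehicle (SD, n = 4), 2.18% ± 0.62 in RGRN-305 (n = 4), 1.20% ± 0.26 in TPA (n = 10) and 2.44% ± 0.35 in TPA+RGRN-305 (n = 10). The TPA mice, at 0.922% to 1.68%, were below all vehicle mice (1.93% to 3.36%) and all TPA+RGRN-305 mice (1.99% to 2.86%), and overlapped the RGRN-305 mice (1.30% to 2.64%). Il4ra went the other way, at 16.2% ± 0.78 of Il13ra1 in vehicle, 20.3% ± 1.37 in RGRN-305, 62.2% ± 7.55 in TPA and 29.0% ± 8.82 in TPA+RGRN-305. The TPA mice, at 51.7% to 75.9%, were above every other mouse, the nearest being TPA+RGRN-305 replicate 10 at 48.5%. These ratios were not tested and describe transcripts, not receptors on cells.

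**Figure D2:**
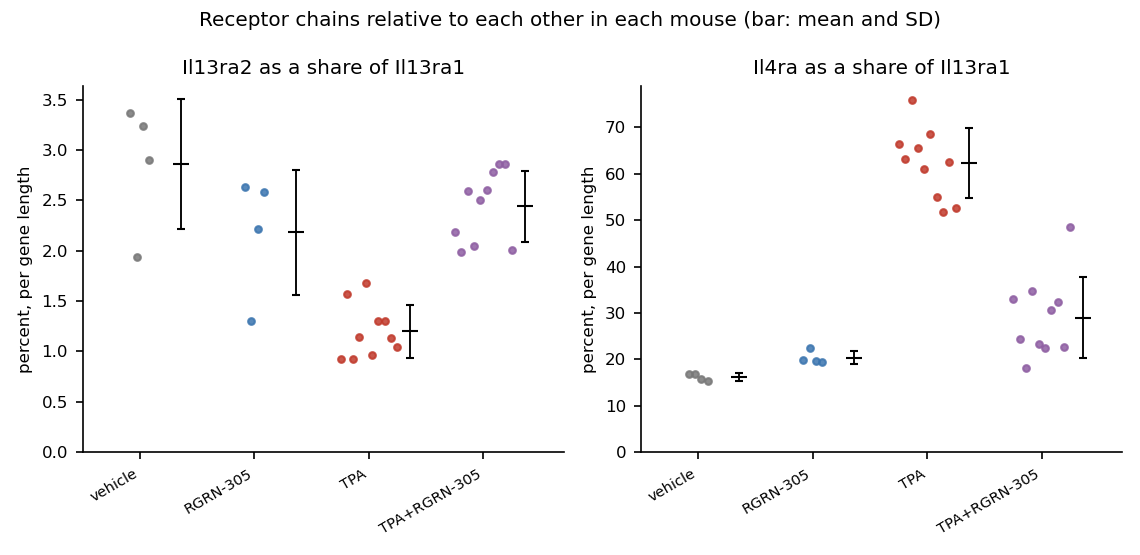
Il13ra2 (left) and Il4ra (right) as a percent of Il13ra1, each as CPM per kilobase of exon, in each mouse (points) by treatment group, with the mean and SD beside each group, on linear axes from 0. The TPA mice are the lowest on average for Il13ra2 (1.20%) and the highest for Il4ra (62.2%).

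Il33, a nuclear cytokine of epithelial and stromal cells that acts as an alarm signal once released, was already well expressed in vehicle skin. Vehicle mice measured 43.0, 44.5, 37.5 and 53.3 CPM, and the RGRN-305 mice 50.4, 57.7, 49.8 and 47.1 CPM. TPA mice measured 55.2, 83.0 and 114 CPM at the lowest, median and highest, and the TPA+RGRN-305 mice 33.3, 41.4 and 45.8 CPM. The lowest TPA mouse, replicate 1, was close to the highest vehicle mouse, and the TPA+RGRN-305 mice were below all RGRN-305 mice. Il33 was 0.87 log2 higher in TPA than in vehicle (SE 0.14, edgeR adjusted p = 1.66e-06) and fell by 1.01 in TPA+RGRN-305 versus TPA (SE 0.10, edgeR adjusted p = 2.01e-10).

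Il1rl1 encodes ST2, the receptor for IL-33 on mast cells, type 2 innate lymphoid cells and some T cells, and also a secreted form that traps IL-33. The table gives 1 value per gene, so these forms were not separated. The vehicle mice had 9.31, 8.94, 6.88 and 10.1 CPM, the RGRN-305 mice 7.19, 6.34, 7.98 and 10.1 CPM. The TPA mice had 13.6, 18.9 and 24.6 CPM at the lowest, median and highest, and the TPA+RGRN-305 mice 7.65, 9.08 and 11.5 CPM. TPA was again apart, and the other groups overlapped. The log2 fold change was 1.08 in TPA versus vehicle (SE 0.14, edgeR adjusted p = 5.14e-08) and -0.99 in TPA+RGRN-305 versus TPA (SE 0.10, edgeR adjusted p = 3.75e-10).

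Tslp, the keratinocyte cytokine that acts on dendritic cells and lymphoid cells, lies on chromosome 18 (32948436 to 32952850) and spread over the widest range among the TPA mice in relation to its median. In vehicle, the mice had 2.24, 1.74, 1.99 and 1.05 CPM, and the RGRN-305 mice 1.51, 1.45, 0.781 and 1.17 CPM. The 10 TPA mice had 3.19, 6.75 and 18.3 CPM at the lowest, median and highest, and the TPA+RGRN-305 mice 1.28, 2.70 and 3.54 CPM. TPA and vehicle did not overlap, while the lowest TPA mouse was below the highest TPA+RGRN-305 mouse, both of them replicate 10 of their group. The highest TPA mouse, replicate 3, was the 1 TPA library with hair follicle transcripts.

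Tslp was 2.10 log2 higher in TPA than in vehicle (SE 0.36, edgeR adjusted p = 5.05e-06) and fell by 1.54 in TPA+RGRN-305 versus TPA (SE 0.24, edgeR adjusted p = 1.13e-06). Without TPA replicate 3 these log2 fold changes were 1.85 and -1.29, and both calls held. Of the 18991 genes tested, 677 had a higher log2 fold change than Tslp in TPA versus vehicle.

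Crlf2, the chain that binds TSLP, showed the smallest change among the genes that passed the test. The 4 vehicle mice had 16.4, 15.3, 14.6 and 14.1 CPM, and the RGRN-305 mice 13.8, 13.4, 12.2 and 14.6 CPM. TPA mice measured 22.1, 26.5 and 30.5 CPM at the lowest, median and highest, and the TPA+RGRN-305 mice 14.9, 17.9 and 22.6 CPM. TPA was apart from vehicle, but TPA+RGRN-305 replicate 4 was above the lowest TPA mouse. Crlf2 was 0.83 log2 higher in TPA than in vehicle (SE 0.09, edgeR adjusted p = 3.85e-09) and fell by 0.56 in TPA+RGRN-305 versus TPA (SE 0.07, edgeR adjusted p = 1.52e-08).

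**Figure D3:**
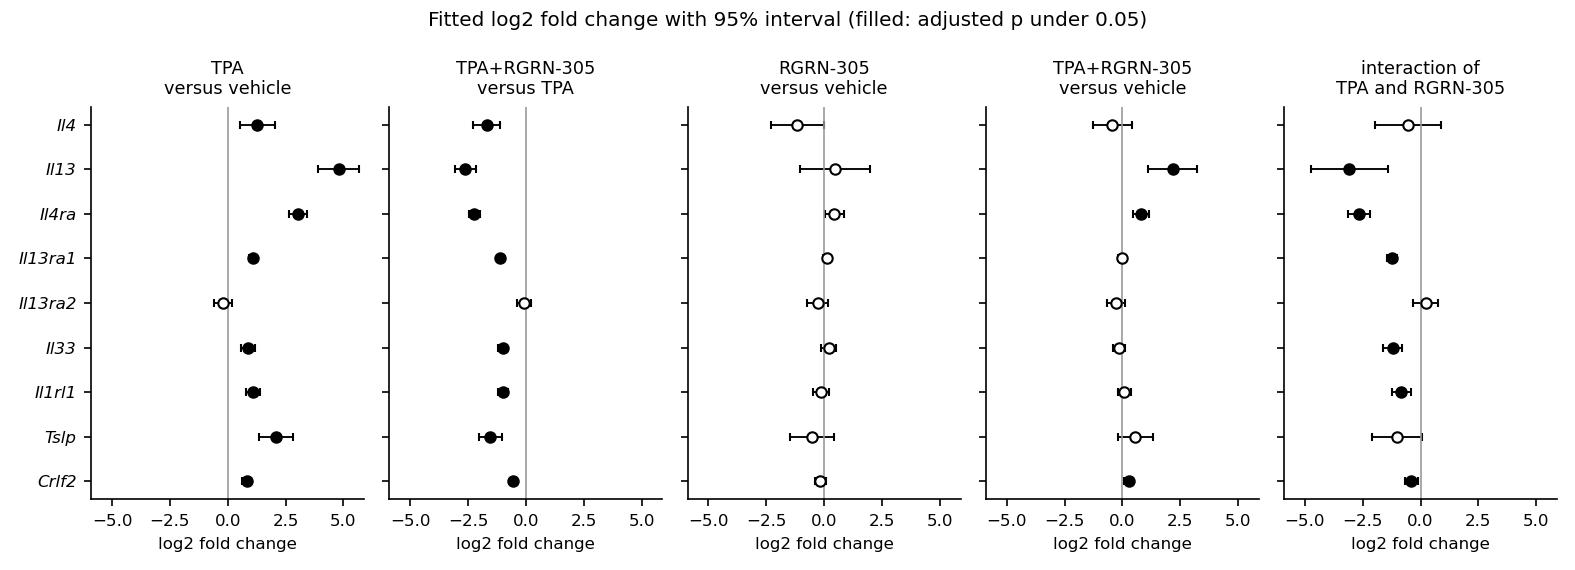
Fitted log2 fold change (horizontal axis) of each gene with its 95% interval in 5 comparisons, with filled points for an edgeR adjusted p under 0.05. Filled points are on the right for 8 genes in TPA versus vehicle and on the left for 8 genes in TPA+RGRN-305 versus TPA, and there are none in RGRN-305 versus vehicle. Il4 is shown from the fit with the low-count filter, which it passed only through TPA libraries.

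RGRN-305 treatment alone, without TPA, changed none of the 9 genes at an adjusted p under 0.05 (edgeR, 0.481 to 0.853). The share called over all genes was 0%, with 1810 genes at an unadjusted p under 0.05, and DESeq2 called 19 genes and 0 of the 9. In the fit with the filter on low counts, an unadjusted p under 0.05 was given by 2 of the 9 genes. Il4ra was 0.45 log2 higher (95% interval 0.04 to 0.85), and all 4 RGRN-305 mice were above all 4 vehicle mice, as in 2.37% of all genes. Il4 was at -1.16 (-2.31 to -0.01) with the filter and at -1.15 without it (edgeR adjusted p = 0.643). Its summed counts were 8 against 18, a ratio of rates of 0.433 with an exact 95% interval of 0.163 to 1.05. Differences of Il13 (-1.04 to 1.98) and Tslp (-1.48 to 0.44) had wide intervals at this depth.

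To ask whether the response to TPA itself differed with pretreatment, the interaction of TPA and RGRN-305 was tested. It was negative for 6 of the 9 genes, against 25.0% of all genes (edgeR), and positive for 0 of the 9, against 25.8%. A negative value means that the log2 change with TPA was lower after RGRN-305 than without it. For Il33 (-0.34) and Il13ra1 (-0.15, 95% interval -0.29 to -0.005) the change in TPA+RGRN-305 versus RGRN-305 was below 0, though not called. With a log2 value below -1 in addition, 4 of the 9 were called, against 7.51%. The values were -3.09 for Il13 (SE 0.80, edgeR adjusted p = 0.00180), -2.67 for Il4ra (SE 0.23, 7.64e-11), -1.23 for Il13ra1 (SE 0.10, 1.42e-11) and -1.21 for Il33 (SE 0.19, 3.05e-06). Il1rl1 was at -0.84 (SE 0.20, edgeR adjusted p = 6.46e-04) and Crlf2 at -0.40 (SE 0.13, edgeR adjusted p = 0.0116). Il4 (-0.53, 95% interval -1.97 to 0.90), Tslp (-1.02, -2.12 to 0.07) and Il13ra2 (0.22, -0.34 to 0.77) did not pass. That value of Il4 is from the fit with the filter, and without it Il4 was at -0.51 (edgeR adjusted p = 0.786).

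Without the 7 libraries with hair follicle transcripts, which left 2 RGRN-305 mice, 3 of these 6 interactions held and those of Il13 (-2.64, edgeR adjusted p = 0.0736), Il1rl1 (-0.57, edgeR adjusted p = 0.0545) and Crlf2 (-0.30, edgeR adjusted p = 0.104) did not. Scaled by library totals alone, the interaction of Crlf2 was -0.11 (edgeR adjusted p = 0.471).

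A rise against vehicle was still measured for 3 of the 9 genes in the TPA+RGRN-305 mice, against 11.7% of all genes, and 0 of the 9 were lower, against 10.3% (edgeR). With a log2 fold change above 1 in addition, 1 of the 9 was called, against 1.84%. Il13 was 2.18 log2 above vehicle (SE 0.51, edgeR adjusted p = 0.00237) and Il4ra 0.80 (SE 0.17, edgeR adjusted p = 7.44e-04). In both, the TPA+RGRN-305 and vehicle mice did not overlap, as in 6.58% of all genes, although in Il13 the lowest TPA+RGRN-305 mouse, at 0.211 CPM, was next to the highest vehicle mouse, at 0.208 CPM. Crlf2 was 0.27 log2 higher (SE 0.09, edgeR adjusted p = 0.0367) with overlap. This call was lost without any 1 of vehicle replicates 2, 3 and 4 or TPA+RGRN-305 replicates 4, 5, 7, 8 and 10 (edgeR adjusted p = 0.0515 to 0.133), in a fit of only the groups compared (0.0563), with scaling by library totals (0.24, edgeR adjusted p = 0.0617) and with the replicate number as a block (0.104).

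The other 6 genes did not pass the test against vehicle. The difference was -0.03 log2 for Il13ra1 (95% interval -0.17 to 0.12), 0.09 for Il1rl1 (-0.19 to 0.38) and -0.14 for Il33 (-0.41 to 0.14). For Tslp it was 0.56 (-0.19 to 1.31), an interval that reaches well above 0. For Il13ra2 it was -0.26 (-0.65 to 0.12). For Il4 it was -0.43 (-1.29 to 0.43) with the filter and -0.41 without it (edgeR adjusted p = 0.690).

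Measured against RGRN-305 alone, TPA+RGRN-305 was higher in 2 of the 9 genes, against 8.72% of all genes, and lower in 0 of the 9, against 5.33% (edgeR). With a log2 fold change above 1 in addition, 1 of the 9 was called, against 1.23%. Crlf2 was 0.43 log2 higher (SE 0.09, edgeR adjusted p = 0.00243), with no overlap between the groups, as in 3.53% of all genes. Il13 was 1.71 higher (SE 0.47, edgeR adjusted p = 0.0132) with overlap. The Il13 call was lost without RGRN-305 replicate 2 (1.44, edgeR adjusted p = 0.0546), in a fit of only the groups compared (1.71, edgeR adjusted p = 0.0509) and without the hair follicle libraries (2.12, edgeR adjusted p = 0.0710). Il33 was at -0.34 (95% interval -0.61 to -0.07, edgeR adjusted p = 0.0818), and all TPA+RGRN-305 mice were below all RGRN-305 mice, as in 1.70% of all genes. Tslp was at 1.08 (0.28 to 1.87, edgeR adjusted p = 0.0579), and it passed in DESeq2 (adjusted p = 0.0256), in a fit of only the groups compared (edgeR adjusted p = 0.00843), and without TPA replicate 3 or 10 or TPA+RGRN-305 replicate 5.

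Levels were compared between genes as CPM per kilobase of exon. In vehicle skin the order was Il13ra1 (31.3), Il33 (15.4), Crlf2 (10.1), Il4ra (5.07), Tslp (1.32), Il1rl1 (1.28), Il13ra2 (0.900), Il4 (0.181) and Il13 (0.0927). Neighbours in this order overlapped between mice for Tslp and Il1rl1, for Il1rl1 and Il13ra2, and for Il4 and Il13. In TPA skin Il13ra1 stayed first (66.3), followed by Il4ra (41.4), Il33 (28.3), Crlf2 (17.9), Tslp (5.63), Il13 (2.72), Il1rl1 (2.70), Il13ra2 (0.793) and Il4 (0.443). Il4ra thus moved from the fourth to the second place, where it overlapped Il33, and Il13 from the last place to one it shared, within the spread, with Tslp and Il1rl1.

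**Figure D4:**
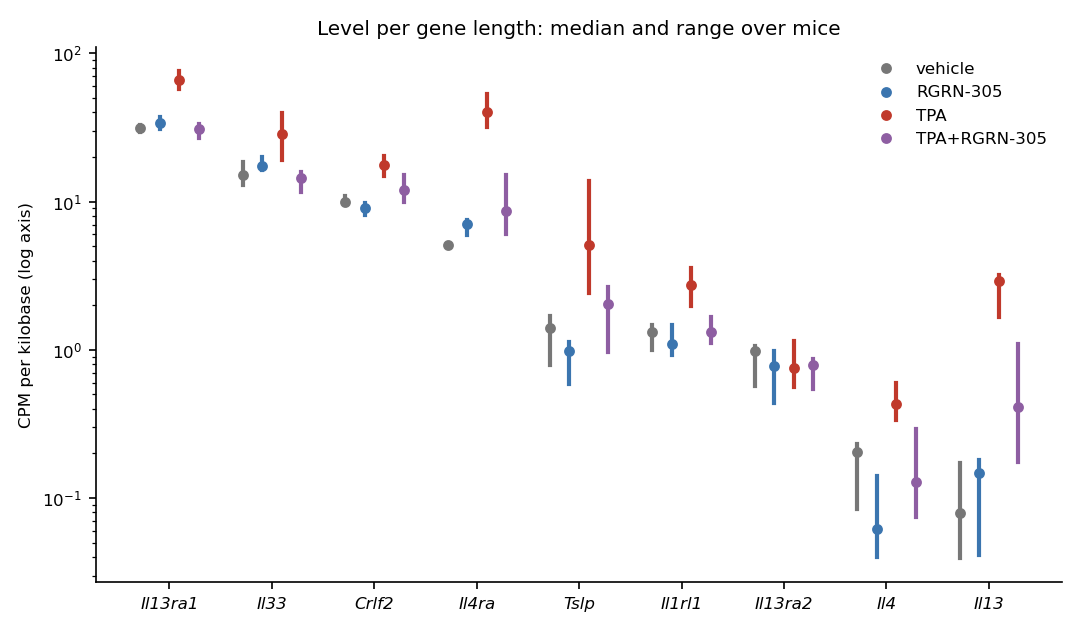
CPM per kilobase of exon (log axis) of each gene by treatment group, as the median (points) and the range over mice (lines), with genes ordered by their mean in vehicle. The Il4 range in TPA+RGRN-305 leaves out 1 mouse with a count of 0, which a log axis cannot show. Il4ra and Il13 in TPA stand highest above their own vehicle levels.

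Some mice were high in several of these genes at once. TPA replicate 3 had the highest level of its group in Il13, Il4ra and Tslp, and TPA+RGRN-305 replicate 10 had the highest of its group in the same 3 genes. TPA replicate 5 was the lowest of its group in Crlf2, Il13, Il13ra1 and Il1rl1. These are descriptions of single mice with no test.

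The protein-coding genes whose pattern was closest to each of the 9 were found by the root mean square difference of centred log2 CPM over the 28 libraries, among 15092 genes. The 3 nearest to Il4ra were Rab20 (0.165), Ptges (0.189) and Tgfa (0.189). Those nearest to Il13ra1 were Rps6ka3 (0.103), Ube2q2 (0.106) and B4galt1 (0.107), and those nearest to Crlf2 were Pofut2 (0.134), Tfe3 (0.141) and Myo1c (0.148). For Il1rl1 they were Syk (0.178), Itgax (0.181) and Igf2bp2 (0.184), and for Il33 they were Snx16 (0.217), Tmcc3 (0.224) and Ube2q2 (0.224). For Il13ra2 they were Ptprd (0.225), Maob (0.238) and Bche (0.240). Il4, Il13 and Tslp had more distant neighbours. These were Etnk2 (0.410), Cd209a and Jdp2 for Il4, Rgs16 (0.435), Icam1 and Pxdc1 for Il13, and Slc39a8 (0.474), Il2ra and Rnf122 for Tslp. All of these distances share the same libraries and treatment groups.

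The pathway and marker lists that follow are read beside the shares over all genes, 31.6% higher and 34.4% lower in TPA versus vehicle, and 33.0% higher and 32.6% lower in TPA+RGRN-305 versus TPA. With lists this short, counts near those shares are no result about a list. The partner chains of these receptors moved in the same direction as the 8 genes in part. Il7r, the partner of Crlf2, had a log2 fold change of 1.76 in TPA versus vehicle and of -1.56 in the comparison with RGRN-305 before TPA. Paired values that follow have the same order and scale. Il2rg, the common γ chain that pairs with Il4ra for IL-4, was at 1.17 and -0.80. Il1rap, the partner of Il1rl1, was called lower in TPA (-0.23) and was not called in the second comparison (0.06). Of 8 genes of the JAK-STAT relay, 6 rose and 2 fell with TPA, and 6 fell and 2 rose in TPA+RGRN-305 versus TPA. Jak2 (1.93 and -1.74) and Irs2 (1.82 and -1.58) changed most, while Stat6, the main transducer of IL-4 and IL-13, changed by 0.36 and -0.24.

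All 5 listed genes of the SOCS family (Socs1, Socs2, Socs3, Socs5 and Cish), which give negative feedback, rose with TPA. They were lower when RGRN-305 came first, led by Socs3 (4.16 and -3.07) and Socs1 (3.11 and -1.90). Other genes of the family were not on the list. Of the 7 genes of the IL-33 relay, 4 rose and 1 fell with TPA, and 4 fell and 1 rose in the second comparison. Irak3 (2.00 and -1.60), a brake on this relay, and Myd88 (1.92 and -1.51), its adaptor, changed most. Of 11 tested genes known to respond to IL-4 or IL-13, 8 rose and 1 fell with TPA, and 8 fell in the second comparison. Chil3 (5.41 and -3.98), Ccl24 (3.45 in TPA versus vehicle) and the eosinophil attractant Ccl11 (-2.24 in TPA+RGRN-305 versus TPA) led these changes. Retnla (0.13 and 0.29) and Postn (-0.10 and -0.05), which also respond to these cytokines, were not called in either comparison. The summed level of all 12 genes on this list overlapped between the groups. It was 796 to 1095 CPM in vehicle, 727 to 1031 in RGRN-305, 788 to 1320 in TPA and 685 to 1056 in TPA+RGRN-305. Most of these targets answer to other signals too.

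Of 12 related type 2 cytokines and receptors, 6 were tested, of which 4 rose and 2 fell with TPA. Csf2 (3.56, SE 0.69) and Osmr (2.76) rose most. Csf2 was sparse, with summed counts of 4 in vehicle, 9 in RGRN-305, 114 in TPA and 54 in TPA+RGRN-305. No library outside TPA held more than 10 Csf2 counts, so its entry into the test leaned on the TPA group. In TPA+RGRN-305 versus TPA, Osmr (-2.02) and Csf2rb (-1.58) fell most. Il5, the eosinophil growth factor, did not pass the filter, with summed counts of 12 in vehicle, 7 in RGRN-305, 61 in TPA and 23 in TPA+RGRN-305. Il3, a basophil and mast cell growth factor, had 0 counts in vehicle and in RGRN-305, 56 in TPA and 3 in TPA+RGRN-305. Il9 had 0 counts in all 28 libraries and Il31 had 1. Il25, an epithelial cytokine, had 4 counts in vehicle, 8 in RGRN-305, 3 in TPA and 21 with both agents.

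Among markers of the cells that can make or read these cytokines, those of mast cells moved mostly against the 8 genes. Of 12 mast cell markers, 9 were lower and 1, Hdc, was higher in TPA versus vehicle, and 10 were higher and 1 lower in TPA+RGRN-305 versus TPA. Ms4a2, a chain of the IgE receptor, was at -1.66 and 1.40 and the histamine-forming enzyme Hdc at 2.98 and -2.07. The summed level of all 12 was 294 to 310 CPM in vehicle, 231 to 314 in RGRN-305, 264 to 354 in TPA and 264 to 328 in TPA+RGRN-305. Without Hdc, left out after its values were seen, the sum was 284 to 298 CPM in vehicle, 221 to 303 in RGRN-305, 186 to 256 in TPA and 246 to 313 in TPA+RGRN-305, so that TPA lay below vehicle without overlap. Their part in the values of Il4, Il13 and Il1rl1 was not tested.

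Of 10 tested genes of type 2 lymphocytes, 5 rose and 4 fell with TPA, which is not a shift in 1 direction. Areg (6.56 and -2.83) and Icos (2.47 and -2.09) rose most. Gata3 (-0.72 and 0.61), a transcription factor of these cells, and the skin homing receptor Ccr4 (-2.15 and 1.36) went the other way. This list summed to 655 to 747 CPM in vehicle, far above the T cell markers given next. Which cells of the ear carried these transcripts was not tested. Of 7 tested T cell markers, 0 rose and 3 fell with TPA, with Cd3g at -0.62 and 0.61 and Cd3d at -0.62, while Cd3e was at 0.43 in TPA+RGRN-305 versus TPA, and their sum was 45.7 to 50.6 CPM in vehicle and 36.4 to 47.3 in TPA. Of 4 basophil markers, 2 were tested, of which 0 changed with TPA and 1 was lower when RGRN-305 came first (Cd200r3, -0.73). Among the others, Mcpt8 had 3 counts in vehicle and 11 in TPA, and Prss34 had 0 and 7. None of the 5 eosinophil markers passed the filter. Their sum was 0.142 to 0.364 CPM in vehicle and 0.651 to 1.33 in TPA, with Ear6 at 0 in all libraries and Epx at 2 counts in TPA.

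The other cell lists follow. All 6 neutrophil markers rose with TPA and were lower when RGRN-305 came first, led by Retnlg (6.96 and -4.89) and Mmp8 (6.68 and -4.91). Their sum was 16.6 to 22.3 CPM in vehicle, 180 to 285 in TPA and 19.1 to 51.7 in TPA+RGRN-305. Of 7 macrophage and dendritic cell markers, 4 rose and 2 fell with TPA, with Cd207 at 3.07 and -2.02, Ccr7 at 1.39 in TPA versus vehicle and Itgax at -0.86 in TPA+RGRN-305 versus TPA. Their sum was 183 to 210 CPM in vehicle and 296 to 397 in TPA. These cells can express Il4ra, Il13ra1 and Crlf2, and their part in those values was not tested. Of the structural lists, 3 of 6 keratinocyte markers, 1 of 6 fibroblast markers and 1 of 5 endothelial markers were higher in TPA, and 1, 1 and 0 were lower, counts that are not set apart from the shares over all genes. Dsg3, a desmosomal cadherin of keratinocytes, was at 2.25 and -1.70, Krt1 at 0.58 in the first comparison and Krt5 at 0.31 in the second. Pdgfra of fibroblasts was at 0.50 and -0.53 and Lum at -0.31 in the first, and of the endothelial genes Cdh5 was at 0.70 and -0.65 and Kdr at 0.24 in the second. Of the 5 hair keratins, 1 was higher in TPA (Krt27, 3.13) and 0 were called when RGRN-305 came first.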

How the data were processed

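RNA was taken from ear punches, and paired-end libraries from a directional kit were sequenced. The authors aligned reads to GRCm39, counted for each gene those that aligned once and without ambiguity, and deposited the raw counts. The submitters' processing notes name Subread 2.10.3. The table held 0 columns without a sample. Of 55414 gene identifiers, 54749 matched GENCODE M39, and the other 665 held 0.0567% of the counts.

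Counts were tested in R 4.3.3 with edgeR 4.0.16 (quasi-likelihood test, TMM, 1 term per group over all 28 libraries, prior count 2 for log2 CPM). The low-count filter was filterByExpr at 10 counts, scaled to the median library size, and 15 counts in total. Adjusted p-values are Benjamini-Hochberg values over the 18991 genes tested, and a call is an adjusted p under 0.05. The p-values printed for Il4 by name are the exception and come from the fit without the filter. DESeq2 1.42.0 was an alternative. The script was tested on simulated data. Depth is the total count per library, and intervals of summed counts are exact 95% intervals for counting error only. Values of TMM-scaled CPM per kilobase use the exon union length.

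The 9 genes, the pathway and marker lists and the tests were chosen with earlier results of these data known. All 9 genes are named in every comparison. From each list the genes named were the 2 past the adjusted p with the largest absolute log2 fold change in each of the main comparisons, and the 3 nearest genes by pattern. Stat6, Il1rap, Retnla, Postn, Gata3, Ccr4 and the sparse genes with counts were chosen after their values were seen. The study gives as many mice per group as there are libraries.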

Additional observations from a re-analysis of the deposited data

Results flagged for a closer look

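The highest Il13 value among the TPA+RGRN-305 mice, 1.32 CPM in replicate 10, lay far from the others, the next being 0.759 CPM (gap over range 0.507, limit 0.466). The same mouse was also far above the rest in Il4ra, at 90.1 CPM with the next at 64.1 CPM (0.484). Of 36 groups of values examined this way, 2 stood out, and chance gives about 5% of groups. Without that mouse the calls for Il13 and Il4ra in TPA+RGRN-305 versus TPA and versus vehicle were kept.

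The effect of TPA differed with RGRN-305 pretreatment, by the interaction term of edgeR, in Il13 (-3.09), Il4ra (-2.67), Il13ra1 (-1.23), Il33 (-1.21), Il1rl1 (-0.84) and Crlf2 (-0.40), all on the log2 scale. Without the libraries with hair follicle transcripts, those of Il13 (edgeR adjusted p = 0.0736), Il1rl1 (0.0545) and Crlf2 (0.104) did not pass, and with scaling by library totals that of Crlf2 was -0.11 (0.471).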

How the results depend on the processing

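Alternatives were the size factors of DESeq2, scaling by library totals, testing without the filter on low counts, the DESeq2 test, the replicate number as a block, fits of only the groups compared, and leaving out each library. Fits without the library with little Xist, which changed no call of the 9 genes, and without the hair follicle libraries were chosen after seeing the data. Of the values of single genes, 1884 kept direction and side of the threshold, 8 crossed to a call, 18 lost one and 8 turned in direction. With library totals alone, 1 gene was called lower in TPA versus vehicle (Il13ra2). With only the groups compared, 1 was lower in TPA+RGRN-305 versus RGRN-305 (Il33), Tslp gained a call there and Il13 lost one, as did Crlf2 versus vehicle. Without the hair follicle libraries, 1 was higher in that comparison and 3 had a negative interaction. When each library was left out, the number of genes higher in that comparison was 1 to 3, and the numbers called in TPA versus vehicle and in TPA+RGRN-305 versus TPA were 7 to 8, with Il4 untested in the lower case. The cause of these shifts was not tested.

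Direction turned only in values that were not called. Il13ra2 in TPA+RGRN-305 versus TPA was 0.19 with library totals and -0.12 to 0.0061 when each library was left out, above 0 without TPA replicate 2. In TPA+RGRN-305 versus RGRN-305 it was -0.16 to 0.18, below 0 without RGRN-305 replicate 2 or TPA+RGRN-305 replicate 3 or 7. Il1rl1 in TPA+RGRN-305 versus vehicle was -0.0096 to 0.17, below 0 without vehicle replicate 3, and the Il4 interaction was 0.14 without the hair follicle libraries.

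The labels do not say whether replicate numbers pair the mice. Of 30 same-numbered pairs of libraries, 2 correlated above 0.1 after group means were removed (-0.13 to 0.20). Differently numbered pairs were not compared, so these values cannot tell whether the numbers pair mice. With the replicate block, 8 genes were still called in each main comparison, Crlf2 lost its call in TPA+RGRN-305 versus vehicle (edgeR adjusted p = 0.104), Tslp gained one versus RGRN-305 (1.43, edgeR adjusted p = 0.0311), and Il13ra2 there was -0.056. Il4 and Il13 are limited by depth in vehicle and RGRN-305, with 1 to 6 counts per library.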
